A study of Mus musculus with 14 samples.

Results

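Collagens, laminins and the other structural genes of the extracellular matrix were followed across 5 sorted populations of the mouse mammary gland. Members were the probe sets with 1 gene symbol whose symbol named a collagen, laminin, fibrillin, fibulin, EMILIN, elastin, fibronectin, thrombospondin, tenascin, lysyl oxidase, nidogen, microfibril-associated protein, latent TGFβ binding protein, matrilin, agrin, perlecan or a matrix proteoglycan of the versican and decorin kind, averaged per gene. The rule gave 64 genes, measured by 106 probe sets, of 6044 named genes and of 7190 rows tested in all. Of 104 RefSeq symbols that match the rule, the other 40 had no row of their own in the table and were not analysed here. By role the 64 genes fell into 9 fibrillar collagens, 19 genes of the basement membrane, 12 other collagens, 14 genes of elastic fibres and microfibrils, 4 matrix proteoglycans, 4 adhesive and matricellular glycoproteins, and 2 genes that the rule takes by name only (Mfap3 and Mfap3l).

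The study asked how Thy-1+ cells differ from other mammary epithelial cells. RNA came from virgin female C57BL/6 mice of 6 to 8 weeks by the labels, from cells sorted by CD24, CD49f and Thy-1 after removal of cells that stained for CD45, CD31 or Ter119 and, by the study's methods, CD140a. Luminal cells were CD24highCD49fmed (luminal progenitors in the labels, 3 arrays) and CD24medCD49f-/low (differentiated luminal cells, 2 arrays). Basal cells were Thy-1+CD24medCD49fhigh (stem cells in the labels), Thy-1-CD24medCD49fhigh (progenitors) and CD24medCD49fmed (myoepithelial cells, which the study's text calls CD24lowCD49fmed), with 3 arrays each. The labels give no treatment, and the groups are defined by surface staining alone. Nothing in the labels ties replicates to separate mice, so p-values measure the spread between these arrays, which may be technical.

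The deposited values were log2 values centred on the mean of the 14 arrays for each probe set, so that 0 is a gene's own mean and levels of different genes cannot be compared. The authors kept probe sets that changed at least 4-fold, so every member had to differ between some arrays to be in the table. All 10 luminal and all 10 basal markers measured were on the labelled side in luminal minus basal cells (medians 2.30 and -4.01 log2). In 3 basal arrays the median over all 7190 rows was low, at -0.74 and -0.51 in replicates 1 and 3 of Thy-1+CD24medCD49fhigh and -0.15 in replicate 2 of Thy-1-CD24medCD49fhigh, against -0.02 to 0.28 in the other 11 arrays. The basal marker median was lowest in the same 3 arrays (0.49, 0.25 and 0.49, against 1.65 to 2.08 in the other 6 basal arrays). The list was split in Thy-1+CD24medCD49fhigh replicate 3. There the basal keratin genes Krt5 (2.62) and Krt14 (1.94) were the highest of the basal arrays and Trp63 stood at 1.58, while Acta2, a contractile gene, was -0.21. Other cell types were followed by lists of markers too. The median of 15 endothelial markers measured (of 16 listed) was 2.79 in Thy-1+CD24medCD49fhigh replicate 1 and 2.50 in CD24medCD49fmed replicate 1. That of 4 adipocyte markers (of 9) was 2.54 and 1.99 in the same arrays, 1.33 in CD24medCD49fmed replicate 2 and -0.75 to 0.75 in the other basal arrays. That of 8 epidermal keratinocyte markers (of 10) was 4.37 in Thy-1+CD24medCD49fhigh replicate 3. It was also raised in CD24medCD49fmed replicates 2 and 3 (2.19 and 1.95) and in Thy-1-CD24medCD49fhigh replicate 3 (1.50). The median of 5 myeloid markers (of 14) was 2.78 in CD24medCD49f-/low replicate 1. The median of 7 Schwann cell markers (of 12) was 1.38, 0.53 and 1.74 in Thy-1+CD24medCD49fhigh arrays, against 0.04, 0.36 and 0.48 in Thy-1-CD24medCD49fhigh and 0.03, -0.06 and 0.22 in CD24medCD49fmed arrays, with 6 of 7 above 0 in Thy-1+CD24medCD49fhigh minus both others. In the Thy-1+CD24medCD49fhigh arrays Mbp, a myelin protein gene, was 2.55, 0.17 and 2.49, and Sox10, a factor of the Schwann lineage, was -2.79, 0.54 and 0.10. The median of 8 pericyte markers (of 10) was 2.69, 0.02 and 0.41 in Thy-1+CD24medCD49fhigh arrays, with Rgs5 at 4.39 in replicate 1, against -0.61 to 1.20 in the other 6 basal arrays. The part of these cell types in the results was not tested, and fewer cells of a type and less RNA per cell cannot be told apart in such sorted populations.

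The mammary epithelium rests on a basement membrane, a sheet built of a laminin network and a collagen IV network that nidogens and perlecan link. Each laminin is a trimer of an alpha, a beta and a gamma chain, and each collagen is a triple helix of alpha chains, in some types of 2 or 3 different genes. Fibrillar collagens (types I, II, III, V and XI among them) form the fibres of the stroma, where fibroblasts are their best known source, and myoepithelial cells are known to deposit much of the laminin of the gland.

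The upstream 250 bases of 4 members that stand for the patterns across basal arrays described below are shown here: Col1a2 and Col3a1, which followed Thy1, and Lamb1 and Vcan, which followed the basal marker median. Vcan did so at r over 0.5 only before each array was centred on its median (0.75, and 0.47 after). The 4 runs are RefSeq sequences of build GRCm38.p6, which held such a window for 46 of the 64 members. Each run ends at the base before the annotated start. Capitals mark the CCAAT box (the letters CCAAT), the TATA box (TATAAA), the AP-1 motif (TGACTCA) and the GC box (GGGCGG) on either strand, the reverse strand showing their reverse complements.
Col1a2 (chr6:4505368-4505617, + strand): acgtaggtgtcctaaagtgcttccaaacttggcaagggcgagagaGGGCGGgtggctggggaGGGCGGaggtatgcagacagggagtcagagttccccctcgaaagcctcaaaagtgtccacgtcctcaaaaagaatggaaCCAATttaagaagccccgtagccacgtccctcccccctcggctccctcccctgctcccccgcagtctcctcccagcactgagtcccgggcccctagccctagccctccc
Col3a1 (chr1:45311288-45311537, + strand): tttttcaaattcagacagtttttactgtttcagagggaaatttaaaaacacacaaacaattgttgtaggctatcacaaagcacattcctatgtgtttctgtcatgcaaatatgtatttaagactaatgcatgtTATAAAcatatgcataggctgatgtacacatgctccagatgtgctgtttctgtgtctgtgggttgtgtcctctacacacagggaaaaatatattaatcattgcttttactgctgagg
Lamb1 (chr12:31265043-31265292, + strand): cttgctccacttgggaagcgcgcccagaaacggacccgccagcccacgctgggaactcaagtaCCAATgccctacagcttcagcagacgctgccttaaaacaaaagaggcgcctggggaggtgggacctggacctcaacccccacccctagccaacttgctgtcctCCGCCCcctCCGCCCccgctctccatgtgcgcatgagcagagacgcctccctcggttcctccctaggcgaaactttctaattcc
Vcan (chr13:89742513-89742762, - strand): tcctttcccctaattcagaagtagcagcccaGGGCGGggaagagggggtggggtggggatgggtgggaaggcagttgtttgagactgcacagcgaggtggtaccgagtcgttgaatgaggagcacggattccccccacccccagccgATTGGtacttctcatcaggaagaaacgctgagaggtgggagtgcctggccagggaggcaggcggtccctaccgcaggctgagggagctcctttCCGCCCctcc
Col1a2 held a CCAAT box that begins 109 bases before the start and GC boxes at 205 and 188 bases. Lamb1 held a CCAAT box at 187 and GC boxes at 84 and 75 bases, Vcan a CCAAT box at 103 and GC boxes at 219 and 10 bases, and Col3a1 a TATA box at 117 bases and none of the others. No motif overlapped another. Over all 32851 such windows, 33.8% held a CCAAT box, 12.4% a TATA box, 4.46% an AP-1 motif and 32.7% a GC box, and of the 58 windows of the 46 matched members 19 (32.8%), 5 (8.62%), 2 (3.45%, of Col6a1 and Tnxb) and 32 (55.2%) held them. These matches describe letters and not binding. No motif was shared by both Thy1-like genes, and the 2 basal-like genes shared the CCAAT and GC boxes with Col1a2.

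Matrix genes were lower in luminal than in basal cells. Of the 64 members, 48 (75.0%) were lower and 3 (4.69%) higher in the mean of the 2 luminal than of the 3 basal populations at an adjusted p under 0.05 (limma with Benjamini-Hochberg adjustment over all 7190 rows), where 17.4% of all rows were lower and 27.7% higher. The median difference of the members was -1.68 log2, against 0.33 over all rows. Every luminal array lay below every basal array in 36 members (56.2%), against 9.51% of all rows, and above every basal array in 2 members, Ltbp1 and Col8a1, against 16.5% of all rows. The 4-fold filter was applied to all rows alike. Centring each array on its median moved the median of all rows to 0.06 and that of the members to -1.96. Then 52 members were lower and 3 higher (85.9%), and of all rows 1569 were lower and 1430 higher (41.7%).

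**Figure D1:**
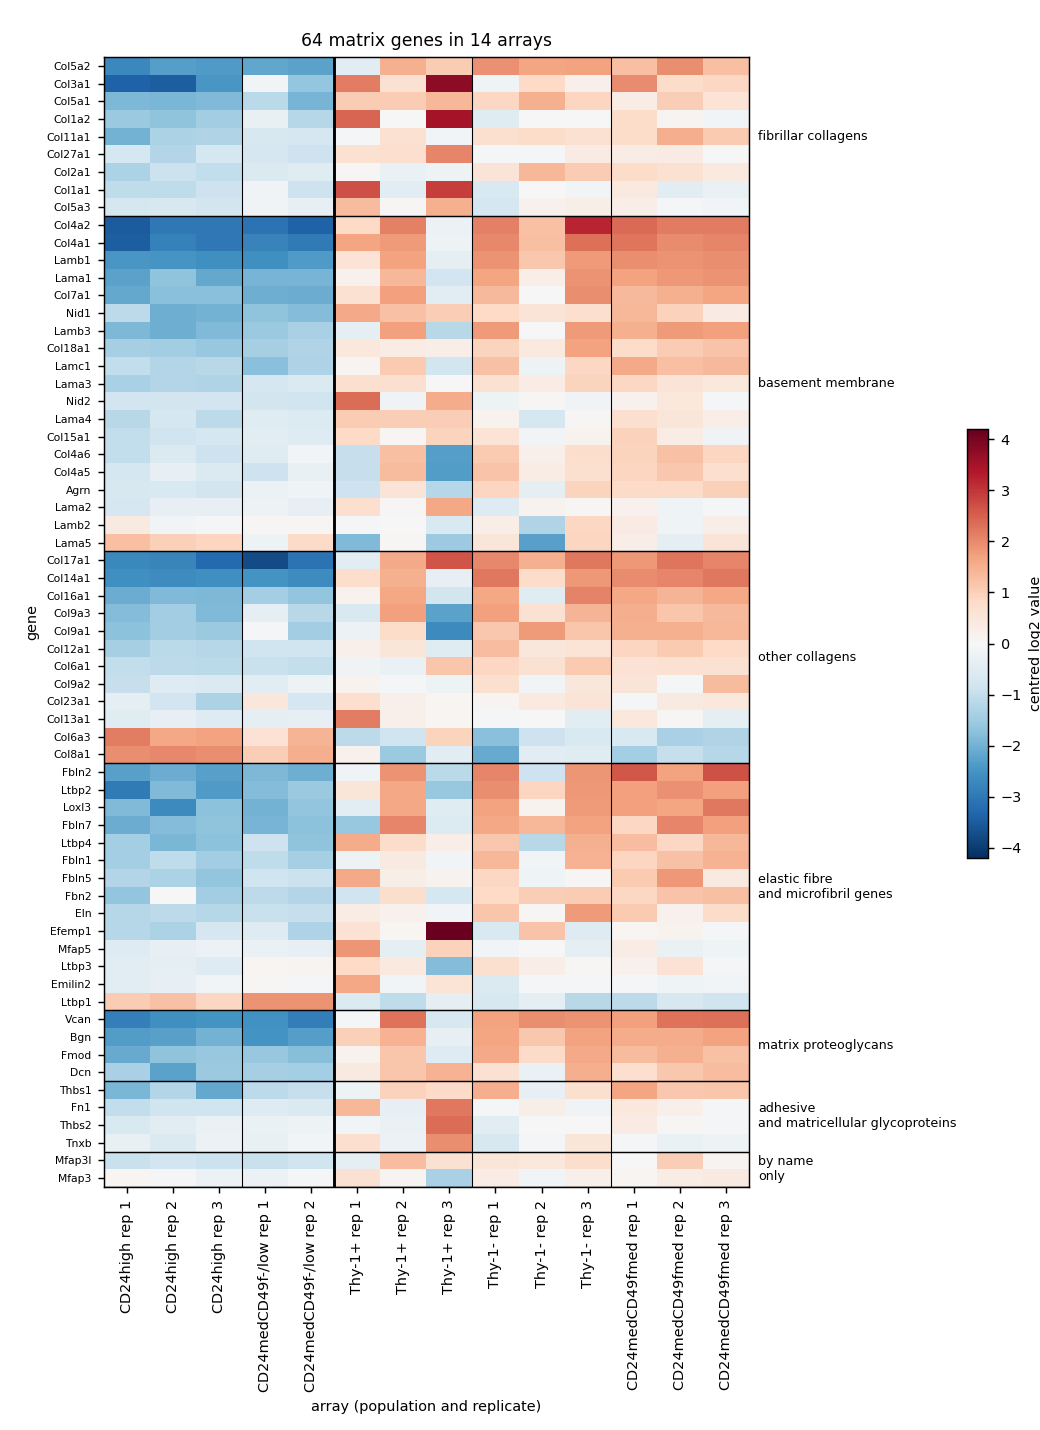
Centred log2 values of the 64 matrix genes (rows, by class) in the 14 arrays (columns, luminal populations left of the thick line, basal populations right of it); blue is below and red above the gene's mean. Most rows are blue in all 5 luminal arrays, and Col1a1, Col1a2, Col3a1 and Efemp1 are darkest red in replicate 1 or 3 of Thy-1+CD24medCD49fhigh.

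The main collagen IV chains were lower in luminal cells. Col4a2, which encodes the alpha 2 chain of the most widespread collagen IV, was -3.48, -3.00 and -2.99 log2 in CD24highCD49fmed and -3.11 and -3.41 in CD24medCD49f-/low arrays, against 0.82, 2.11 and -0.25 in Thy-1+CD24medCD49fhigh, 2.11, 1.24 and 3.21 in Thy-1-CD24medCD49fhigh and 2.39, 2.17 and 2.19 in CD24medCD49fmed arrays. All luminal values were lower than all basal values, and the lowest basal array was Thy-1+CD24medCD49fhigh replicate 3. The difference was -4.99 (31.7-fold, SE 0.37, limma adjusted p = 3.93e-09). Col4a1, its partner chain, was -3.46, -2.84, -3.01, -2.80 and -2.98 in the 5 luminal arrays and ranged over the 9 basal arrays between -0.22 and 2.33 (median 1.99). It was 25.5-fold lower in luminal cells (-4.67, SE 0.34, limma adjusted p = 2.60e-09). The annotated starts of Col4a1 and Col4a2 lie 21 bases apart on chromosome 8 on opposite strands, and their values correlated at r = 0.99 over 14 arrays and 0.91 over 9 basal arrays. Such r values describe arrays that share populations, marker levels and array medians.

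Laminin chains did not all follow this order. Lamb1, the beta 1 chain, was -2.43, -2.49, -2.58, -2.59 and -2.38 in luminal arrays, against -0.40 to 1.96 in basal arrays (median 1.78), a difference of -3.88 (14.7-fold, SE 0.32, limma adjusted p = 1.30e-08). Lama1, an alpha chain that pairs with it, differed by -3.11 (SE 0.35), and Lamc1, the gamma 1 chain of most laminins, by -2.06 (SE 0.33), with limma adjusted p of 8.66e-07 and 4.42e-05. Lama1 and Lamb1 correlated at r = 0.98 and Lamb1 and Lamc1 at r = 0.95 over 14 arrays. Of the laminin of hemidesmosomes, Lamb3 differed by -2.66 (SE 0.41) and Lama3 by -1.54 (SE 0.26; limma adjusted p = 2.84e-05 and 8.66e-05), while the 2 Lama3 probe sets correlated at only 0.141. Lama4, an alpha chain known from vessels, differed by -1.22 (SE 0.26, limma adjusted p = 0.000862).

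Lama5, the main alpha chain of adult epithelial basement membranes, went the other way without passing the threshold. It was 1.26, 0.99, 0.89, -0.21 and 0.80 in the luminal arrays, against -1.86, 0.06 and -1.52 in Thy-1+CD24medCD49fhigh, 0.51, -2.28 and 0.89 in Thy-1-CD24medCD49fhigh and 0.29, -0.38 and 0.54 in CD24medCD49fmed arrays. The groups overlapped, and the 3 lowest arrays were those with a low median over all rows (difference 1.09, SE 0.45, limma adjusted p = 0.0548). Lamb2, the beta 2 chain, stood at 0.10 (SE 0.32, limma adjusted p = 0.805) and at -0.17 after median centring. Lama2, the alpha chain of muscle and nerve basement membranes, and Agrn, the heparan sulfate proteoglycan agrin, stood at -0.59 and -0.73 (limma adjusted p = 0.106 and 0.0714).

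The other chains of this class were lower in luminal cells in most cases. Col7a1, the collagen of anchoring fibrils, differed by -3.06 (8.36-fold), and Nid1 and Nid2, the nidogens, by -2.69 and -1.24. Col18a1, whose C-terminal fragment is endostatin, and Col15a1, its relative, differed by -2.19 and -1.08. Col4a5 and Col4a6, an X-linked pair with starts 1343 bases apart, stood at -0.90 and -0.91 (limma adjusted p = 0.0859 and 0.0773), with basal arrays spread between -2.34 and 1.32 for Col4a5, with Thy-1+CD24medCD49fhigh replicates 1 and 3 below every luminal array. In all, 13 of 19 basement membrane genes were lower in luminal cells and 0 higher (median -1.54), where 17.4% of all rows were lower and 27.7% higher.

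Each of the 9 fibrillar collagen genes was lower in luminal cells (median -1.76), but their order among the basal arrays differed. Col5a2, a chain of collagen V, which regulates fibre diameter, was -2.69, -2.32, -2.38, -2.20 and -2.26 in luminal arrays, against -0.44 to 1.96 in basal arrays (median 1.48; difference -3.67, SE 0.31, limma adjusted p = 2.32e-08). Col5a1, its partner, differed by -2.69 (SE 0.27, limma adjusted p = 1.76e-07), and the pair correlated at 0.93 over 14 arrays but at -0.02 over 9 basal arrays. Col5a3, the rarest chain, differed by -0.79 (limma adjusted p = 0.0376).

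Col3a1, the collagen of reticular fibres, showed the widest spread of luminal values among these genes. It was -3.39, -3.45 and -2.44 in CD24highCD49fmed and -0.11 and -1.64 in CD24medCD49f-/low arrays, against 2.14, 0.65 and 3.76 in Thy-1+CD24medCD49fhigh, -0.18, 0.82 and 0.20 in Thy-1-CD24medCD49fhigh and 2.00, 0.76 and 0.88 in CD24medCD49fmed arrays. The CD24medCD49f-/low replicate 1 array, with -0.11, lay above 1 basal array (difference -3.21, SE 0.43, limma adjusted p = 6.70e-06). Col1a2 and Col1a1, the chains of collagen I, differed by -1.85 (SE 0.42) and -1.21 (SE 0.43), with limma adjusted p of 0.00146 and 0.0281. Their basal values were highest in 2 of 9 arrays, as given below, and Col1a1 was called in 11 of 20 alternative analyses and Col5a3 in 7 of 20.

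**Figure D2:**
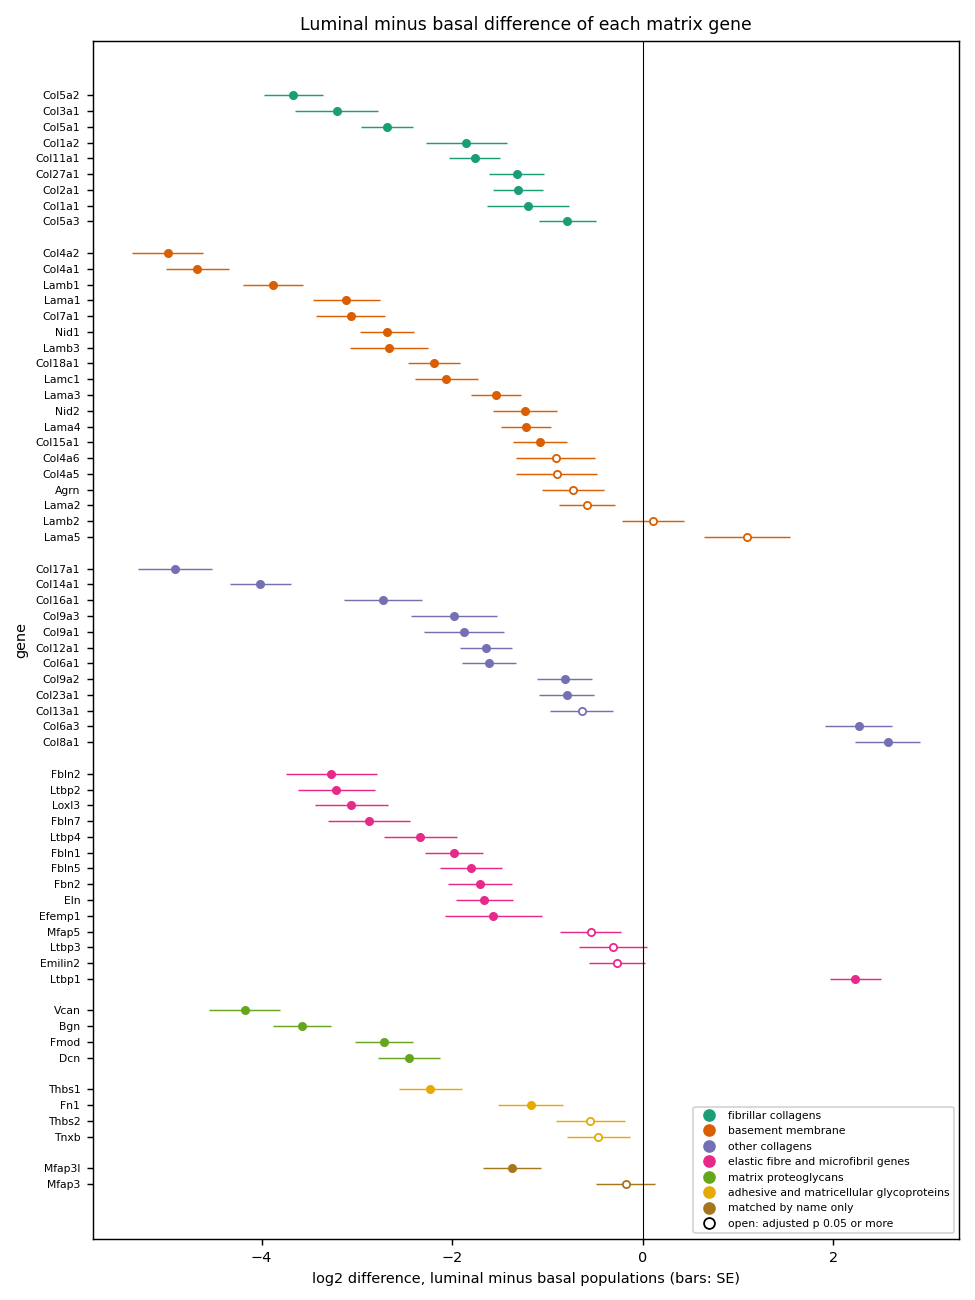
Difference of each matrix gene in log2 (horizontal axis) between the mean of the 2 luminal and the mean of the 3 basal populations, by class; bars are standard errors and open points had a limma adjusted p of 0.05 or more. Points left of 0 are lower in luminal cells, from -4.99 for Col4a2, and Col8a1, Col6a3 and Ltbp1 lie on the right.

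Other collagens held both directions. Col17a1, a transmembrane collagen of hemidesmosomes, was -2.72, -2.79, -3.25, -3.74 and -3.11 in luminal arrays, against -0.48, 1.58 and 2.66 in Thy-1+CD24medCD49fhigh arrays and 1.50 to 2.26 in the other 6 basal arrays (difference -4.91, 30.0-fold, SE 0.39, limma adjusted p = 9.34e-09). Col14a1 and Col16a1, fibril-associated collagens, differed by -4.01 and -2.72 (limma adjusted p = 1.13e-08 and 2.42e-05). Col9a1, Col9a2 and Col9a3, the chains of the cartilage collagen IX, differed by -1.88, -0.82 and -1.98 (limma adjusted p = 0.00128, 0.0264 and 0.00137).

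Higher in luminal cells were 2 collagen genes. Col8a1, a short-chain collagen known from vessels and cornea, was 1.95, 2.03, 1.95, 1.03 and 1.53 in luminal arrays, against -2.12 to 0.18 in basal arrays (median -0.95), with no overlap (difference 2.57, 5.93-fold, SE 0.34, limma adjusted p = 5.42e-06). Col6a3, the large chain of the microfibrillar collagen VI, was 2.15, 1.63 and 1.70 in CD24highCD49fmed and 0.62 and 1.44 in CD24medCD49f-/low arrays, against -1.76 to 0.94 in basal arrays. Only Thy-1+CD24medCD49fhigh replicate 3, with 0.94, overlapped the luminal range (difference 2.27, 4.81-fold, SE 0.35, limma adjusted p = 3.11e-05). Col6a1, another chain of the same collagen, had the opposite sign (-1.61, SE 0.28, limma adjusted p = 0.000129), and the pair correlated at -0.72 over 14 and at 0.35 over 9 basal arrays. Col6a2, the remaining chain of the classic trimer, was not analysed here.

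Among genes of elastic fibres and microfibrils, 10 of 14 were lower and 1 higher in luminal cells (median -1.76), beside 17.4% and 27.7% of all rows. Fbln2, a fibulin of basement membranes and elastic fibres, was -2.27, -2.10, -2.28, -1.89 and -2.04 in luminal arrays, against -1.12 to 2.68 in basal arrays (median 1.84; difference -3.27, SE 0.48, limma adjusted p = 1.79e-05). Ltbp2, a microfibril protein, Loxl3, a lysyl oxidase that crosslinks collagen and elastin, and Fbln7 differed by -3.22, -3.06 and -2.88 (limma adjusted p = 3.20e-06, 2.74e-06 and 2.31e-05). Eln, elastin itself, differed by -1.66 (SE 0.30, limma adjusted p = 0.000178).

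Ltbp1, which holds latent TGFβ in the matrix, was the member of this class with the opposite direction. It was 1.06, 1.23 and 0.85 in CD24highCD49fmed and 1.89 and 1.88 in CD24medCD49f-/low arrays, against -1.16 to -0.39 in basal arrays (difference 2.23, 4.70-fold, SE 0.26, limma adjusted p = 1.47e-06). Ltbp2 and Ltbp4, its relatives, were lower in luminal cells (-3.22 and -2.33), and Ltbp3, whose 3 probe sets did not agree (lowest r -0.024), stood at -0.31 (limma adjusted p = 0.481).

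The 4 matrix proteoglycan genes were each lower in luminal cells (median -3.15). Vcan, the large hyaluronan-binding proteoglycan versican, was -2.87, -2.58, -2.52, -2.54 and -2.89 in luminal arrays, against -0.66 to 2.33 in basal arrays (median 1.87; difference -4.18, 18.1-fold, SE 0.37, limma adjusted p = 4.12e-08). Bgn, Fmod and Dcn, the small leucine-rich proteoglycans biglycan, fibromodulin and decorin, which bind collagen fibrils, differed by -3.58, -2.72 and -2.45 (limma adjusted p = 1.99e-08, 7.35e-07 and 5.18e-06). Of the glycoproteins, Thbs1, which activates latent TGFβ, differed by -2.23 (SE 0.33) and Fn1, fibronectin, by -1.17 (SE 0.34), with limma adjusted p of 2.03e-05 and 0.00884. Thbs2 and Tnxb stood at -0.55 and -0.47 (limma adjusted p = 0.215 and 0.248).

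Genes that make and turn over matrix, taken from lists that hold no member, were mostly on the same side. Of all rows 17.4% were lower and 27.7% higher in luminal cells, with a median of 0.33. Of 20 measured genes of matrix assembly and processing (32 listed), 11 were lower and 3 higher in luminal cells (median -1.10). Postn and Sparc, matricellular proteins that bind collagen, differed by -5.65 and -5.18, and Serpinh1, the collagen chaperone, by -2.16, while Tgm2 (1.80), Npnt (1.55) and P4ha2 (0.77) were higher. Of 15 measured genes of degradation (30 listed), 10 were lower and 1, the protease gene Adamts15 (1.17), higher, with a median of -1.15. Mmp2, a gelatinase, differed by -3.48 and Adamts4, an aggrecanase, by -3.45 (limma adjusted p = 5.12e-08 and 3.74e-08). The fibroblast markers that are no members, among which Postn and Pcolce stand in the assembly list too, were also lower in luminal cells (12 of 15 measured, median -1.44), with medians of -1.35 to -0.84 in luminal arrays and 0.23 to 0.97 in basal arrays. Their part in the results was not tested.

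Within the basal cells, Thy-1+CD24medCD49fhigh arrays were the most spread. Col1a1 was 2.71, -0.45 and 2.89 in Thy-1+CD24medCD49fhigh, against -0.65, 0.00 and -0.13 in Thy-1-CD24medCD49fhigh and 0.40, -0.44 and -0.29 in CD24medCD49fmed arrays. Col1a2 was 2.43, -0.03 and 3.49, against -0.53, 0.03 and 0.03, and 0.78, 0.13 and -0.13, in the same order of populations. Replicates 1 and 3 of Thy-1+CD24medCD49fhigh were the 2 highest of the 9 arrays for both genes, and replicate 2 lay within the range of the other populations. Thy1, the gene of the sorting marker, had values of 2.00, -0.07 and 3.03 in the 3 Thy-1+CD24medCD49fhigh arrays, against -0.77, -0.10 and -0.36 in Thy-1-CD24medCD49fhigh and 0.73, -0.46 and 0.12 in CD24medCD49fmed arrays, so the library labelled Thy-1+ replicate 2 did not stand above the others in Thy1 either.

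With all 9 arrays, 0 members were called between Thy-1+CD24medCD49fhigh cells and the mean of the other 2 basal populations, where 0.0% of all rows did. Col1a2 stood at 1.91 (3.77-fold, SE 0.59), Col1a1 at 1.90 (SE 0.61), Efemp1, a fibulin, at 1.59 (SE 0.69), Col3a1 at 1.44 (SE 0.57) and Nid2 at 1.20 (SE 0.50), each with a limma adjusted p of 0.317. The lowest were Col9a1 at -2.12 (SE 0.58), Col9a3 at -1.71, Fbln7 at -1.61, Col4a6 at -1.53 and Ltbp2 at -1.50, again with a limma adjusted p of 0.317. Without adjustment 27 members (42.2%) had a limma p under 0.05, beside 15.4% of all rows. The class medians were 0.99 for fibrillar collagens and -0.88 for basement membrane genes, against -0.50 for all members and -0.46 for all rows, and after median centring 1.43, -0.44, -0.06 and -0.02 in that order. Efemp1 rested on 1 array, Thy-1+CD24medCD49fhigh replicate 3, with 4.15 against 0.62 and 0.10 in the other replicates. That array had the highest keratinocyte marker median, which was raised in some arrays of the other basal populations too.

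Replicate 2 of Thy-1+CD24medCD49fhigh decided these calls. Without it 30 of 64 members (46.9%, beside 29.3% of all 7190 rows) passed the threshold against both other basal populations. Of these members 11 were higher and 19 lower, while 329 rows were higher and 1777 lower in all. The higher ones were Col1a1 (2.99, SE 0.39, limma adjusted p = 0.00347), Col1a2 (2.91), Efemp1, Col3a1 (2.20), Nid2, Fn1, Mfap5, Tnxb, Col5a3, Emilin2 and Lama2. The lower ones included Col9a1 (-2.86), Col9a3 (-2.76), Vcan (-2.33), Lamb3 (-2.22), Col4a2 (-1.93), Lama1 (-1.84) and Lamb1 (-1.68). The 2 arrays left in that group are both among those with a low median over all rows. Without replicate 2 the median difference was -0.66 for the members and -0.71 for all rows. Lower calls were thus common among all rows too, and whether the members exceeded all rows on the lower side was not tested.

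In the pairwise comparison against Thy-1-CD24medCD49fhigh alone, 0 members passed, where 0.0417% of all rows did, with Col1a2 at 2.12 (SE 0.72), Col1a1 at 1.97, Col3a1 at 1.90, Efemp1 at 1.61 and Nid2 at 1.34, and with Col9a1 at -2.08, Col9a3 at -1.66, Fbln7 at -1.63, Ltbp2 at -1.39 and Col4a5 at -1.38. The smallest limma adjusted p was 0.699, and 7 members (10.9%) had an unadjusted p under 0.05, beside 5.29% of all rows. Array weights were estimated from these same arrays, lower for an array that departs from its group, and use no separate measure of quality. With them 11 members passed (17.2%, beside 2.77% of all rows), among them Col1a1, Col1a2, Col3a1 and Efemp1 higher. Rank products gave 5 (7.81%, beside 2.29% of all rows), the same 4 higher and Col9a1 lower, at an unadjusted p under 0.01.

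Against CD24medCD49fmed, 0 members passed, where 0.0% of all rows did, and the smallest limma adjusted p was 0.548. Col1a1 stood at 1.83 (SE 0.78), Col1a2 at 1.71, Efemp1 at 1.56, Nid2 at 1.06 and Tnxb at 1.00, and Col9a1 at -2.17, Fbln2 at -2.13, Col9a3 at -1.75, Col4a6 at -1.69 and Loxl3 at -1.65. With the replicate number as a block, which pairs these arrays, Col9a1 and Fbln2 were lower (limma adjusted p = 0.0214 and 0.0246), where 0.765% of all rows passed. In that fit all genes had the same SE. Without Thy-1+CD24medCD49fhigh replicate 2 and with no block, 21 members passed (32.8%, beside 11.9% of all rows), 3 higher and 18 lower, where 82 rows were higher and 774 lower, and 0 passed against Thy-1-CD24medCD49fhigh cells without that array. These comparisons share the Thy-1+CD24medCD49fhigh arrays.

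Thy-1-CD24medCD49fhigh and CD24medCD49fmed cells showed no difference past the threshold in these genes, with 0 members and 0.0% of all rows past the threshold, and 0 members with an unadjusted p under 0.05 (limma; smallest adjusted p 0.999). The widest differences were -1.32 for Fbln2 (SE 0.70), -0.93 for Col3a1, -0.86 for Fbln5, -0.77 for Lamc1 and -0.71 for Ltbp4 on the low side, and 0.45 for Col5a1, 0.40 for Col2a1, 0.31 for Eln, 0.26 for Col5a2 and 0.25 for Col6a1 on the high side. Replicate 2 of Thy-1-CD24medCD49fhigh held the low value of Fbln2 (-0.88, against 2.06 and 1.84 in the other replicates), and rank products called Fbln2 lower at an unadjusted p under 0.01, where 2.25% of all rows were called.

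**Figure D3:**
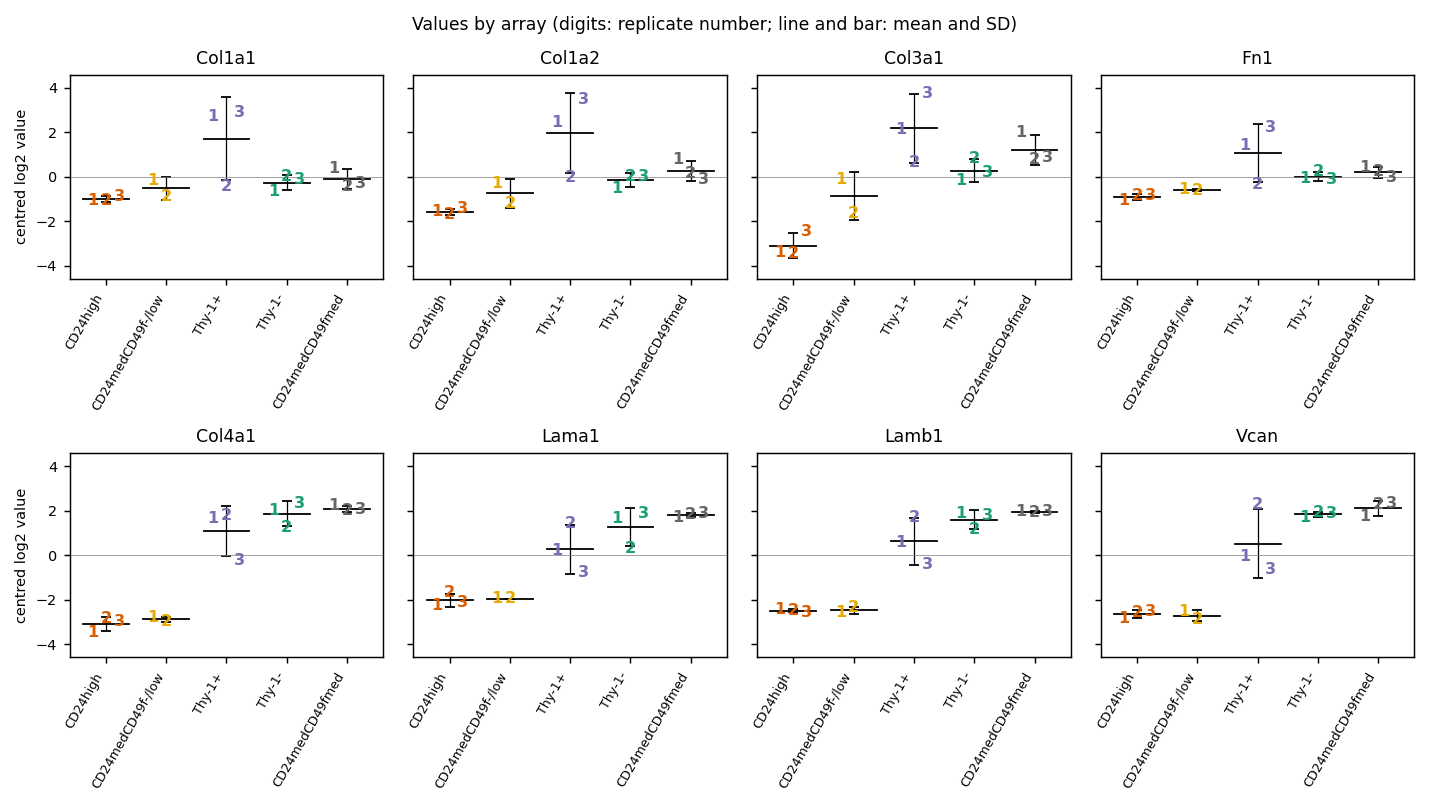
Centred log2 values of 8 matrix genes in each array of the 5 populations (digits are replicate numbers, the line is the mean and the bar the SD, n = 3, or 2 for CD24medCD49f-/low). In the upper row Thy-1+ replicates 1 and 3 are the highest arrays, and in the lower row they are among the 3 lowest basal arrays, where all luminal arrays lie below them.

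Over the 9 basal arrays, 18 members (28.1%) correlated with Thy1 at r over 0.5, where 12.4% of all rows did, and 35 (54.7%) with the median of the basal markers, where 50.3% of all rows did. After centring each array on its median 24 members (37.5%) followed Thy1, beside 26.5% of all rows, and 23 (35.9%) the basal markers, beside 19.7% of all rows. Thy1 and the basal marker median themselves correlated at -0.76, and the median over all rows followed the basal marker median (0.85), so array-wide shifts are shared by these points and a gene that followed 1 of the 2 measures could hardly follow the other. Col1a2 (0.98), Col1a1 (0.97), Col3a1 (0.96), Lama2 (0.96), Fn1 (0.95), Tnxb (0.89) and Nid2 (0.85) followed Thy1. Thy1 was 2.00 and 3.03 in Thy-1+CD24medCD49fhigh replicates 1 and 3 and -0.77 to 0.73 in the other basal arrays. These r values thus rest largely on those replicates. Agrn (0.98), Lamb3 (0.97), Lama1 (0.96), Lama5 (0.96), Lamb1 (0.89), Bgn (0.83), Col4a1 (0.81) and Vcan (0.75) followed the basal marker median. After centring Vcan stood at 0.47 and Lamb1 at 0.77. With the median over all rows Vcan correlated at 0.90 and Lamb1 at 0.86. Of 9 fibrillar collagens 5 followed Thy1 and 2 the basal markers, and of 19 basement membrane genes 4 and 14 did, beside the shares of 12.4% and 50.3% of all rows. After centring the counts were 6 and 0 of the fibrillar collagens and 5 and 12 of the basement membrane genes, beside 26.5% and 19.7% of all rows.

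Collagen genes of the same stromal fibre differed in which measure they followed. Col3a1 correlated with Thy1 at 0.96, and at 0.98 after each array was centred on its median. Col5a2 correlated with the basal marker median at 0.56 before such centring but at -0.01 after it. Col3a1 and Col5a2, chains of fibres that are known to mix, correlated at 0.71 over 14 arrays but at -0.58 over the basal arrays, whereas Col1a1 and Fn1 correlated at 0.94 and 0.95. Col5a2 was -0.44 in Thy-1+CD24medCD49fhigh replicate 1, against 1.05 to 1.96 in the other 8 basal arrays. Some members followed the endothelial marker median, with r of 0.86 for Nid1, 0.81 for Col13a1, 0.79 for Fbln5 and 0.76 for Col15a1. With Thy1 these genes correlated at 0.49, 0.51, 0.03 and 0.66 in the same order, so they overlap the genes that followed Thy1. The share of all rows that followed the endothelial median was not counted. Col13a1, a transmembrane collagen, was 2.16 in Thy-1+CD24medCD49fhigh replicate 1, the array with the highest endothelial median, and 0.46 or lower in the other 8 basal arrays. The median of the 15 non-member fibroblast markers correlated with Col1a1 at 0.41. Single markers of that list differed by array. In Thy-1+CD24medCD49fhigh replicates 1 to 3 Dpt was 0.41, -0.27 and 2.97, Pdgfra 0.16, 0.21 and 1.18, and Pdgfrb 2.35, 0.69 and 0.43. The Schwann cell marker median correlated with Col1a1 at 0.92, Lama2 at 0.91, Tnxb at 0.91, Col1a2 at 0.90 and Fn1 at 0.85, and at r over 0.5 with 17 members (26.6%), beside 12.8% of all rows. The part of other cell types in these patterns was not tested.

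**Figure D4:**
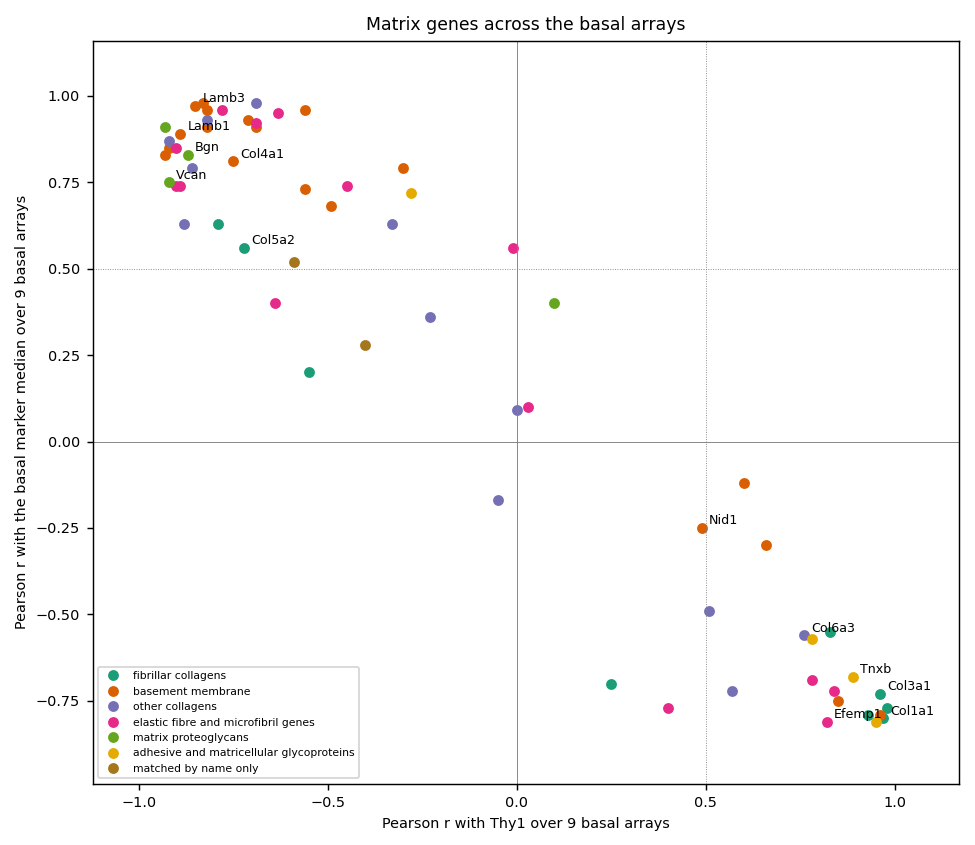
Pearson r of each matrix gene over the 9 basal arrays with Thy1 (horizontal axis) and with the median of the basal markers (vertical axis); points are genes, coloured by class, and dotted lines stand at 0.5. Arrays were not centred on their median here. Genes gather in the upper left, such as Lamb3 and Vcan, and in the lower right, such as Col1a1 and Col3a1. Thy1 and the basal marker median, which set the axes, correlated at -0.76 with each other.

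Luminal progenitors and differentiated luminal cells differed in 2 of 64 members, both lower in CD24highCD49fmed than in CD24medCD49f-/low cells (3.12%, where 2.57% of all rows were lower and 3.02% higher). Col3a1, given above by array, differed by -2.22 (4.66-fold, SE 0.45, limma adjusted p = 0.0318), and Ltbp1 by -0.84 (1.78-fold, SE 0.19, limma adjusted p = 0.0424). Col9a3, Col11a1 and Col1a2 stood at -0.92, -0.84 and -0.82 (limma adjusted p = 0.0706, 0.0782 and 0.0991). Every CD24highCD49fmed array lay below both CD24medCD49f-/low arrays in 27 members (42.2%), against 15.2% of all rows. The CD24medCD49f-/low replicate 1 array, which held the high myeloid markers, was the higher of the pair for Col3a1 (-0.11 and -1.64), Col1a2 (-0.30 and -1.20), Col1a1 (-0.15 and -0.88) and Col9a1 (-0.09 and -1.46). Without it 0 members passed, as without replicate 2 or replicate 3 of CD24highCD49fmed, while 5 passed without CD24medCD49f-/low replicate 2. With all 14 arrays in 1 fit 0 members passed.

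By population mean, 32 of the 64 members were highest in CD24medCD49fmed, 18 in Thy-1+CD24medCD49fhigh, 10 in Thy-1-CD24medCD49fhigh, 3 in CD24highCD49fmed and 1 in CD24medCD49f-/low cells. Of all rows 18.5% were highest in CD24medCD49fmed, 14.0% in Thy-1+CD24medCD49fhigh, 13.2% in Thy-1-CD24medCD49fhigh, 40.1% in CD24highCD49fmed and 14.1% in CD24medCD49f-/low cells. In CD24highCD49fmed cells 48 members (75.0%) were lowest, beside 18.7% of all rows. Of the basal means, no 2 of the same gene differed past the threshold in the main limma fits given above, which did not use the pairing of arrays. With the replicate block Col9a1 and Fbln2 were lower in Thy-1+CD24medCD49fhigh than in CD24medCD49fmed cells (limma adjusted p = 0.0214 and 0.0246).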

How the data were processed

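RNA of 14 sorted samples was labelled by a two-cycle 3′ in vitro transcription protocol and hybridized to Affymetrix whole-genome mouse arrays. The authors deposited 1 table of log2 values, normalized with RMA (robust multichip average, run in MIDAS), then filtered in Cluster 3.0 on signal and on a 4-fold difference, and centred on the mean of each probe set. GCRMA stands in the submitters' notes as well. For MIDAS and RMA, versions: not given in the sources used here. The table held 9645 probe sets, of which 8499 had 1 gene symbol in the platform annotation, 199 several and 947 none, and the smallest row range was 2.0 log2. Centred values allow no filter on dim probe sets. The number of arrays limits the precision.

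Probe sets with 1 symbol were averaged per gene to 6044 genes, and the others were kept singly (7190 rows). 29 members had more than 1 probe set, with a median correlation of 0.937 between them. The 2 probe sets with several symbols that match the rule were left out. Each comparison was a two-sided moderated test (limma 3.58.1, R 4.3.3; lmFit, contrasts.fit and eBayes) fitted to only those arrays that it concerns, and p-values were adjusted after Benjamini and Hochberg over all rows, with 0.05 as the threshold. Luminal minus basal used the mean of 2 and of 3 population means. Rank products after the study's methods, with 100 permutations of each array's values and p under 0.01, were computed with numpy 2.4.6 and pandas 2.3.3 under Python 3.11.15, and figures drawn with matplotlib 3.10.9. The code was tested on simulated data.

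Genes were named by rule: in luminal minus basal cells up to 4 called members each way per class, between basal populations the 5 largest differences each way, called members between luminal populations, the members that the study lists for Thy-1+CD24medCD49fhigh cells, and the chains of 3 epithelial and vascular laminins and of collagens I, III, IV, V and VI. Other names in the text were chosen after their values were seen. The members and lists were chosen with earlier results of these data known.

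Replicate numbers were taken to pair arrays where the deviations of same-numbered arrays from their group means correlated above 0.1 in each of 3 pairs. For CD24medCD49fmed arrays r was 0.388, 0.391 and 0.386 against the Thy-1+ population and 0.374, 0.328 and 0.558 against the Thy-1- population, so both were taken as paired. Between these Thy-1 populations r was -0.002, -0.160 and 0.245, so they were not taken as paired with each other. Both were taken as paired with the same CD24medCD49fmed arrays, so their numbers may share batches, which was not tested. CD24highCD49fmed did not meet the rule with any basal population. With 2 arrays, CD24medCD49f-/low could not meet it. Its r was 0.296 and 0.151 against CD24highCD49fmed and 0.221 and 0.144 against CD24medCD49fmed. Against the Thy-1+ and Thy-1- populations it was 0.155 and 0.137, and 0.139 and 0.051. Luminal numbers were taken as names only. The main fits used no pairing. Alternatives were all arrays in 1 fit, the replicate block, array weights, single probe sets, median centring, quantile normalization, a minimum difference of 1 log2, rank products and leaving out each array.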

Additional observations from a re-analysis of the deposited data

Results flagged for a closer look

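In 8 of 52 groups of arrays tested, 1 array of a named member stood apart, with a gap to its nearest neighbour that exceeded Dixon's critical value (0.710 for 5 and 0.493 for 9 arrays). Chance flags about 1 in 20 groups where all arrays come from 1 population. Each group here mixed 3 basal or 2 luminal populations, so the flags cannot be set against that share. The same few arrays recur. Among basal arrays, Thy-1+CD24medCD49fhigh replicate 3 was low for Bgn (-0.34, next 1.00), Col4a1 (-0.22, next 1.25) and Ltbp2 (-1.61, next 0.52), and high for Col6a3 (0.94, next -0.63). Thy-1+CD24medCD49fhigh replicate 1 was low for Col17a1 (-0.48, next 1.50) and Col5a2 (-0.44, next 1.05). Both arrays have low medians over all rows. Among luminal arrays, CD24medCD49f-/low replicate 1 was high for Col5a1 (-1.12, next -1.84), and CD24highCD49fmed replicate 2 was low for Dcn (-2.24, next -1.56).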

How the results depend on the processing

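For luminal minus basal cells, 51 members were called (79.7%, beside 45.1% of all rows). When 1 array was left out, 46 to 55 were called (71.9% to 85.9%, beside 29.5% to 59.4% of all rows). Without the 3 arrays with a low median over all rows, an alternative chosen after seeing the data, 53 were called (82.8%, beside 54.6% of all rows). Rank products gave 40 (62.5%, beside 17.6% of all rows). Between basal populations the counts depended on the setting. Thy-1+CD24medCD49fhigh minus both others gave 0 members, 0 to 30 when 1 array was left out (30, or 46.9% beside 29.3% of all rows, without Thy-1+CD24medCD49fhigh replicate 2) and 5 by rank products (7.81%, beside 2.36% of all rows). Thy-1+CD24medCD49fhigh minus Thy-1-CD24medCD49fhigh gave 0, also on leaving out each array, but 11 with array weights (17.2%, beside 2.77% of all rows) and 5 by rank products (7.81%, beside 2.29%). Thy-1+CD24medCD49fhigh minus CD24medCD49fmed gave 0, 0 to 21 when 1 array was left out (21 without Thy-1+CD24medCD49fhigh replicate 2, 32.8% beside 11.9% of all rows), 5 by rank products (7.81%, beside 2.04%) and 2 with the replicate block (3.12%, beside 0.765%). Thy-1-CD24medCD49fhigh minus CD24medCD49fmed gave 0, also on leaving out each array, and 1 by rank products (1.56%, beside 2.25% of all rows). CD24highCD49fmed minus CD24medCD49f-/low gave 2 (3.12%, beside 5.59% of all rows), 0 to 5 when 1 array was left out, 0 with all 14 arrays in 1 fit (0.0556% of all rows), 6 with the replicate block (9.38%, beside 11.5%), 6 on single probe sets (9.38%, beside 6.3%), 4 after median centring (6.25%, beside 5.63%), and 1 (1.56%) after quantile normalization, by rank products or at 1 log2 or more, beside 5.34%, 6.22% and 4.02% of all rows. The cause of these changes was not tested. 2 named genes changed sign between Thy-1-CD24medCD49fhigh and CD24medCD49fmed cells, Ltbp4 (-1.21 to 0.10 when 1 array was left out, positive without Thy-1-CD24medCD49fhigh replicate 2) and Eln (-0.08 to 0.78, negative without Thy-1-CD24medCD49fhigh replicate 3), neither past the threshold before or after. The replicate block gave 53 members in luminal minus basal cells (82.8%, beside 47.7% of all rows) and 0 in the basal comparisons other than the one above. Signal over background could not be set beside these calls, since the values are centred.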
